A study of Mus musculus with 6 samples.

Results

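The cytosolic ribosomal protein genes of mouse mammary luminal progenitor cells are described here across 6 RNA-seq libraries. They were taken by name: every row of the deposited table whose symbol is Rpl or Rps followed by a number, with an optional a, x, y or l ending, together with Rplp0, Rplp1, Rplp2 and Rpsa. The rule found 82 rows carrying 79 symbols, out of 18537 rows with 18207 symbols. Rpl29 was listed in 3 rows and Rps4x in 2. The rule itself uses no measured value, but it was chosen with earlier results of these data known.

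The cells were sorted as Lin-CD24loCD29+CD61+ from mammary glands of adult nulliparous littermates that were either Robo1+/+ or Robo1-/-, the latter homozygous for a germline loss of the guidance receptor Robo1 in every tissue. Each genotype had 3 libraries, named gh03, gh09 and gh15 for Robo1+/+ and gh06, gh12 and gh18 for Robo1-/-, and each library pooled 2 animals. No labels tie animals to each other across libraries, so p-values measure the spread between these pools. Each value is a read count divided by 1 size factor for its library, called the normalized value below, and the counts themselves were recovered as whole reads.

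Cytosolic ribosomal proteins assemble on ribosomal RNA into a large subunit, which forms peptide bonds, and a small subunit, which decodes the mRNA. Cells make these proteins in matched amounts, and their mRNAs start with a run of pyrimidines at the cap, the 5′ terminal oligopyrimidine (TOP) tract, through which mTOR signaling controls their translation. Most of the genes have left many processed pseudogenes in the genome, and a few have expressed paralogs. In the mammary gland, demand for protein synthesis grows when progenitors give rise to milk-producing alveolar cells.

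The TOP tract was looked for in the sequences because it is the element that these genes share. RefSeq promoter windows of build GRCm38.p6 were found for 59 of the 79 symbols. A C followed by at least 6 more pyrimidines (C or T), starting within 10 bases of an annotated start on the gene's own strand, was present for 29 of the 59 genes (49.2%). The same search found it for 3821 of 27025 genes with a promoter window (14.1%) and for 7 of 69 mitochondrial ribosomal protein genes (10.1%). Annotated starts can lie some bases away from the cap, so a gene without a match has only no such letters in this window. The 6 windows whose tract followed a purine and lay nearest to the annotated start are shown from 10 bases before it to 20 bases from it onward, with the tract in capitals. They come from chr7:45718061-45718090 (+), chr4:86857348-86857377 (-), chr7:45128726-45128755 (-), chr17:33955646-33955675 (-), chr3:90213629-90213658 (-) and chr2:180257369-180257398 (+), in the order printed.
Rpl18: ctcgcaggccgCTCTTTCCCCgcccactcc
Rps6: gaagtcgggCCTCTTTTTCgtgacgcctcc
Rpl13a: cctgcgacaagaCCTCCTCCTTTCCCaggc
Rps18: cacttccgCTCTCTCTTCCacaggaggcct
Rps27: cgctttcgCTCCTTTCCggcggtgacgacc
Rps21: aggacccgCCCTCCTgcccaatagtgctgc

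The genes differ in the base composition of their coding sequences. The first 90 coding bases of 3 GC-rich and 3 GC-poor members are shown next, with G and C in capitals. The level of a member in library gh18 followed its GC content. Among members with an annotated coding sequence, those shown were the 3 lowest and the 3 highest in gh18 relative to the other libraries. They were thus picked by the level that they illustrate, not as the extremes of GC content. Rpl39 (44.2%) and Rpl30 (44.5%), for example, are poorer in GC than Rps4x and Rpl7. The sequences are those of the annotated coding transcripts on NCBI build 37 (mm9), the build used for the deposited table. Rpl36 lies at chr17:56752818-56753666 (+), Rps15 at chr10:79755176-79756859 (+), Rpl18 at chr7:52970827-52976205 (+), Rps4x at chrX:99380280-99384733 (-), Rpl7 at chr1:16091376-16094743 (-) and Rpl22l1 at chr3:28704358-28706274 (+).
Rpl36: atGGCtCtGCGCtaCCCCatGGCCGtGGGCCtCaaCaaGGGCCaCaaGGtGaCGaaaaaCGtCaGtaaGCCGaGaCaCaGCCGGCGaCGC
Rps15: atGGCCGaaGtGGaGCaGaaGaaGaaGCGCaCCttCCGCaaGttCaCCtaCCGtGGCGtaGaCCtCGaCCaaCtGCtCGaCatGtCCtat
Rpl18: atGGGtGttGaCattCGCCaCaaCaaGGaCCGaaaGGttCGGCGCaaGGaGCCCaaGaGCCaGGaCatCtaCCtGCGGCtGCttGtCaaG
Rps4x: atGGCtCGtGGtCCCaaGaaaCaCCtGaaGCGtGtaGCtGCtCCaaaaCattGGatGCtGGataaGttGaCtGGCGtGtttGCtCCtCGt
Rpl7: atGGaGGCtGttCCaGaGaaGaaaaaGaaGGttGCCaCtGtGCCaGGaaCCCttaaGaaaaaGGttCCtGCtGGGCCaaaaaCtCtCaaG
Rpl22l1: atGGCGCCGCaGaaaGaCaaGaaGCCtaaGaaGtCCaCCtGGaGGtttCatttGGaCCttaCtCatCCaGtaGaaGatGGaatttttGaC
Over the whole coding sequence, GC content was 61.3% for Rpl36, 58.7% for Rps15 and 58.9% for Rpl18, against 47.6% for Rps4x, 47.2% for Rpl7 and 39.6% for Rpl22l1.

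The libraries held between 9727191 and 17433868 recovered reads, with gh18 the smallest. The targeted gene, Robo1, was listed at 289, 574 and 541 in the Robo1+/+ libraries and at 130, 214 and 177 in the Robo1-/- libraries, and these did not overlap. The luminal progenitor markers Kit and Elf5 were present in every library, at 4209 to 5644 and 2366 to 3901. The summed value of the 11 markers of this cell type that the table holds was 73994 in gh18 and between 117628 and 149375 in the other 5. Over the 11 markers, however, the median log2 level in gh18 relative to the average of the 5 others was 0.0008. The lower sum was thus not shared by the list as a whole. Library gh18 stood apart: across 12450 tested genes with an annotated coding sequence, its log2 level relative to the average of the 5 others had a Spearman correlation of -0.71 with coding GC content. Results that rest on gh18 are therefore given with and without it. In sorted bulk samples such as these, fewer cells of a type and less RNA per cell cannot be told apart.

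Cytosolic ribosomal protein genes took between 3.11% and 5.89% of the recovered reads of a library, and the genotypes overlapped. In Robo1+/+ the share was 5.89% in gh03, 4.18% in gh09 and 3.98% in gh15, a mean of 4.68% ± 1.05 (SD, n = 3). In Robo1-/- it was 5.16% in gh06, 3.99% in gh12 and 3.11% in gh18, a mean of 4.08% ± 1.03 (SD, n = 3). The genotype means thus lay closer together than the libraries within either genotype, and without gh18 the Robo1-/- mean was 4.57%. The 95% Wilson intervals of the 6 shares, which cover counting error only, were no wider than 0.0285 percentage points, so counting did not limit these values.

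**Figure D1:**
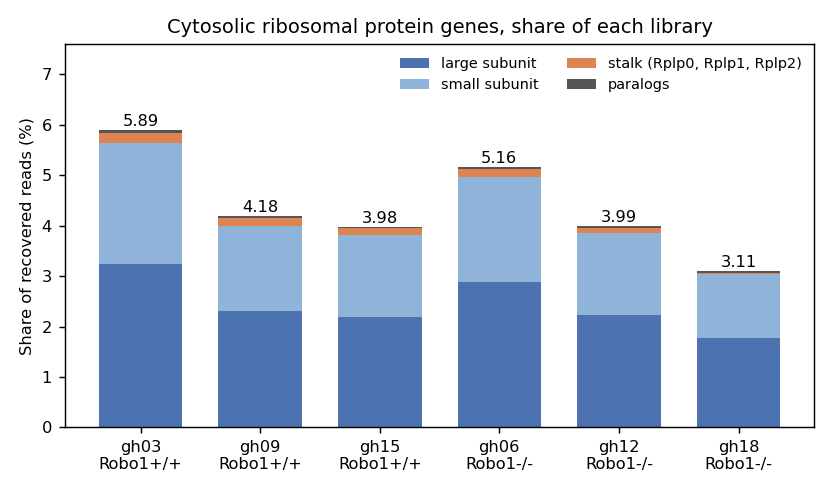
Share of recovered reads (%) taken by cytosolic ribosomal protein genes in each of the 6 libraries, stacked by group, with the total printed above each bar. The highest totals, 5.89% in gh03 and 5.16% in gh06, belong to different genotypes, and gh18 has the lowest at 3.11%.

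The 44 large-subunit rows held 2.59% ± 0.578 of the reads in Robo1+/+ and 2.30% ± 0.563 in Robo1-/- (SD, n = 3 each). The 31 small-subunit rows held 1.89% ± 0.429 and 1.66% ± 0.401. Both subunits ranked the 6 libraries in the same order. The 3 stalk genes, whose proteins form the flexible arm of the large subunit that recruits elongation factors, held 0.209%, 0.169% and 0.140% in Robo1+/+ and 0.167%, 0.106% and 0.0233% in Robo1-/-. Their share in gh18 was below that in every other library. The 4 paralog genes together held between 0.0265% and 0.0409% in any library.

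The group was spread over many levels, and 12 members were among the 100 genes with the highest mean value, and 28 were among the top 200. Over the 81 members that passed the filter on low reads, the mean normalized value ran from 18.4 to 23599 with a median of 6726, against a median of 359 over all 13692 tested genes. The highest was Rpl4 (kgCluster26574, chr9:64021194-64026369), a large-subunit protein that lines the peptide exit tunnel, with 29502, 21334 and 19305 in Robo1+/+ and 28518, 22214 and 20723 in Robo1-/-. Rpl3 (kgCluster8731), a large-subunit protein near the peptidyl transferase center, had 25079, 20364 and 18479 in Robo1+/+ and 24957, 21027 and 16537 in Robo1-/-. For both, gh03 and gh06 were the highest library of their genotype and the genotypes overlapped.

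Per kilobase of coding sequence, the scale on which different genes can be compared, the 10 highest members had Robo1+/+ means between 19832 and 28011 normalized units per kilobase. In order they were Rpl39, Rps4x, Rps24, Rpsa, Rps6, Rps12, Rpl32, Rpl10, Rpl23 and Rps3a. Rpl39, the shortest member with a coding length of 156 bases, stood at 28011 ± 8299 and Rps4x, next to it in order, at 23368 ± 4952 (SD, n = 3). That gap was smaller than the SD of either gene, and each later step in the order was smaller still. Untranslated bases were not counted in the length, which raises the value of genes with a short coding sequence. Rpsa, the laminin receptor protein of the small subunit, had 21355 ± 4052 per kilobase. Near the other end were Rpl29 at 3161 ± 384 per kilobase in the row of its own locus and Rplp2 at 5075 ± 2266.

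No difference between the genotypes passed the test in any of the 81 tested members. With limma, 0 passed an adjusted p of 0.05, as did 0% of the 13692 tested genes, and the lowest adjusted p among the members was 0.858. At an unadjusted p under 0.05, 0 members were lower and 0 higher in Robo1-/-, beside 126 genes lower (0.92% of all tested) and 105 higher (0.767%). Tests on the recovered reads gave the same: edgeR and DESeq2 each called 0 members at either threshold, with 221 and 335 of all genes under an unadjusted p of 0.05. In 0 members were all 3 Robo1-/- libraries below all 3 Robo1+/+ libraries, which held for 4.58% of all tested genes, and in 0 were all 3 above, which held for 4.83%.

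The fold changes themselves leaned toward lower values in Robo1-/-, by an amount that depended on single libraries. With 6 libraries, 55 members had a negative log2 fold change (Robo1-/- over Robo1+/+, on the log2(value + 1) scale) and 26 a positive one. Their median was -0.25, against 0.00 over all tested genes, and the range ran from -2.48 to 0.25. Without gh18 the median was 0.02, with 33 members negative and 48 positive, and the range narrowed to between -0.57 and 0.17. Without gh03 the median was -0.08. After correction for transcript GC content with all 6 libraries the median was -0.14. Leaving out gh06 instead gave a median of -0.50 and 14 members with an unadjusted p under 0.05, all lower in Robo1-/-, where 4.87% of all genes were lower and 1.55% higher at that threshold; still 0 members passed an adjusted p of 0.05. Standard errors ran from 0.21 to 1.76 with a median of 0.34, so that changes of the size of the median fold change were not detectable for most single members.

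**Figure D2:**
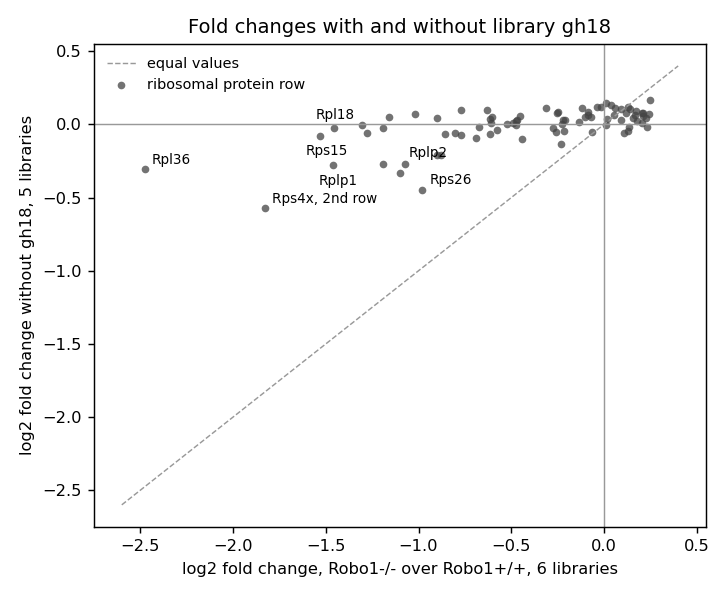
The log2 fold change (Robo1-/- over Robo1+/+) of each of the 81 tested ribosomal protein rows with all 6 libraries (horizontal axis) and without gh18 (vertical axis), with a dashed line where the values would be equal. Values spread from -2.48 to 0.25 with gh18 and lie between -0.57 and 0.17 without it.

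Rps26, a small-subunit protein at the mRNA exit channel, had the smallest p. Rps26 was listed at 3672, 3071 and 3071 in the Robo1+/+ libraries and at 3273, 1749 and 788 in Robo1-/-. Only gh06 reached the Robo1+/+ range among the Robo1-/- libraries. The log2 fold change was -0.98 with a standard error of 0.48 (limma p = 0.083, adjusted p = 0.858; exact two-sided permutation p = 0.3, where 3 against 3 libraries cannot give less than 0.1). It was -0.45 without gh18 and -0.84 after GC correction. Rps26 was thus the member with an annotated locus whose fold change without gh18 was the farthest below 0, although it did not pass a test there either.

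By limma p, Rplp0 came next (0.118), then 2 rows of Rpl29 described below (0.160 and 0.167) and Rplp1 (0.180). The log2 fold changes of these Rpl29 rows, kgCluster226 and kgCluster19606, were -0.90 and -0.88, and -0.21 for each without gh18. Rplp2, the remaining stalk gene, had a larger limma p (0.216). Rplp0, the base of the stalk, which anchors the other stalk proteins, had 19631, 18022 and 14530 in Robo1+/+ and 15664, 11956 and 2774 in Robo1-/-. Its log2 fold change was -1.10 ± 0.62 (SE; limma adjusted p = 0.858; exact permutation p = 0.2), -0.95 after GC correction and -0.33 without gh18. Rplp1 had 5653, 3666 and 2939 in Robo1+/+ and 5226, 2021 and 274 in Robo1-/-. Its log2 fold change was -1.46, and -0.28 without gh18. Rplp2, its partner in the stalk, had 2674, 1369 and 1255 in Robo1+/+ and 2576, 738 and 258 in Robo1-/-, a log2 fold change of -1.07, and -0.27 without gh18. In all 3 stalk genes gh18 was the lowest library and gh12 the next lowest.

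The 5 members with the smallest p among those higher in Robo1-/- were Rpl7, Rps27, Rpl30, Rps27a and Rpl39, with log2 fold changes between 0.21 and 0.25 and standard errors between 0.25 and 0.30. Rpl7, a large-subunit protein, had 18983, 14901 and 14281 in Robo1+/+ and 17444, 15489 and 24032 in Robo1-/-. Rps27a, which is made as a fusion of ubiquitin with a small-subunit protein, had 10719, 7711 and 6995 in Robo1+/+ and 9455, 7937 and 11948 in Robo1-/-. For Rpl7, Rpl30, Rps27a and Rpl39 the highest library was gh18, and all 5 had a smaller fold change without it, from 0.05 to 0.17.

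The level of a member in gh18 followed its coding GC content. In that library 37 of the 81 tested members stood at less than 50% of their mean in the other 5 libraries, 9 at less than 10%, and 22 stood above it on the log2 scale. Across the 77 members with an annotated coding sequence the Spearman correlation of the deviation in gh18 with coding GC content was -0.85, given as a description since all points come from 1 library; with coding length it was 0.05. Members were then split into 3 groups of nearly equal size by coding GC. Among the 26 members of the lower GC group (39.6% to 50.3% GC) the median deviation was 0.17 on the log2 scale, with 18 above 0. Among the 25 members of the middle GC group (50.3% to 54.1%) it was -0.69. Among the 26 of the upper GC group (54.2% to 61.3%) it was -1.92, with 25 below -1 and 0 above 0.

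**Figure D3:**
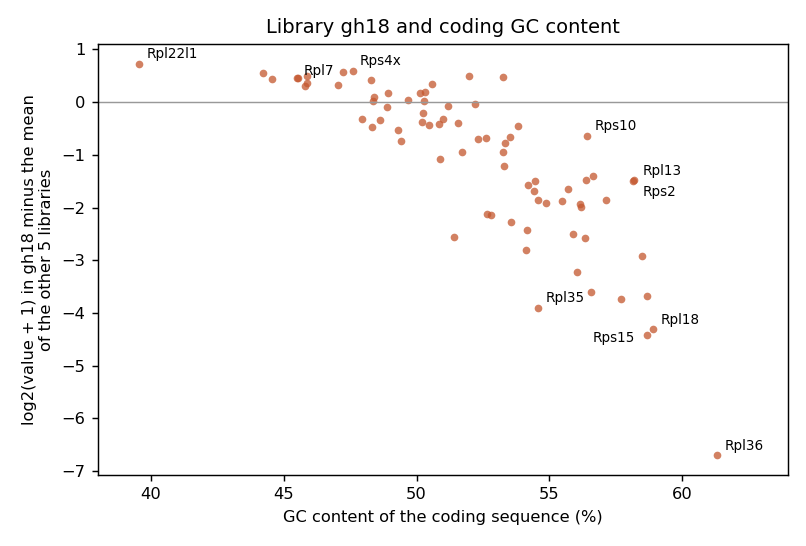
Deviation of library gh18 from the average of the 5 others on the log2(value + 1) scale (vertical axis) against coding GC content in percent (horizontal axis), with a point for each of 77 members. The points fall from Rpl22l1, at 39.6% GC and 0.73, to Rpl36, at 61.3% GC and -6.70.

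The members at the extremes show the size of this. Rpl36, the most GC-rich member and a large-subunit protein, had 1629, 821 and 616 in Robo1+/+ and 1676, 344 and 7.30 in Robo1-/-. The value in gh18 rested on 5 reads and was 0.718% of the mean of the other 5 libraries. Its log2 fold change of -2.48 had a standard error of 1.76, and it became -0.30 without gh18. Rps15, a small-subunit protein whose tail reaches the decoding center, had 7208, 5438 and 5052 in Robo1+/+ and 6969, 4387 and 267 in Robo1-/-. Rpl18 had 8274, 6459 and 5777 in Robo1+/+ and 8659, 5091 and 339 in Robo1-/-. Rpl35, which sits at the exit of the peptide tunnel, had 5884, 3756 and 3428 in Robo1+/+ and 4979, 3588 and 282 in Robo1-/-. These 4 genes and the second Rps4x row described below had the largest SD of log2 values over the libraries, from 1.62 to 2.87.

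At the other end, Rps4x (kgCluster28148), the X-linked gene of a small-subunit protein, had 23016, 16629 and 15879 in Robo1+/+ and 19837, 17004 and 27637 in Robo1-/-, so that gh18 was its highest library at 150% of the mean of the others. The 5 members with the smallest SD over the 6 libraries were Rpl21, Rpl23a, Rps3a, Rpl7l1 and Rpl5, from 0.18 to 0.23 on the log2 scale. Rpl21 had 9280, 7310 and 6796 in Robo1+/+ and 8619, 6901 and 7928 in Robo1-/-.

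Summed over reads, the 26 members of the upper GC group made up 1.06% to 1.70% of the reads in the 5 other libraries and 0.316% in gh18. The 26 of the lower GC group made up 1.43% to 2.15% in those 5 and 1.83% in gh18, within their range. The same order appeared in the fold changes: the median was 0.12 in the lower GC group, -0.23 in the middle GC group and -0.68 in the upper GC group with all libraries, and 0.07, 0.03 and -0.01 without gh18. All 26 members of the upper GC group had a negative log2 fold change with 6 libraries. Without gh18 the Spearman correlation of fold change with coding GC was -0.45 over the 77 members, where it had been -0.86 with it. Among the 5 libraries other than gh18, the correlation of a library's deviation with coding GC over the members was -0.62 in gh12, 0.40 in gh06, 0.30 in gh09, 0.20 in gh15 and 0.00 in gh03. Over 12450 tested genes it was -0.29 in gh12, 0.23 in gh06, 0.19 in gh09, 0.06 in gh15 and -0.02 in gh03.

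Among the 5 libraries other than gh18, the members moved together, with gh03 and gh06 the 2 highest in most of them. The order of gh09, gh15 and gh12 varied from member to member. Each member was compared with its own mean over these 5 libraries. In gh03 all 81 tested members were above it, by a median of 0.35 on the log2 scale or 1.27-fold, and in gh06 77 of 81 were, by a median of 0.22 or 1.17-fold. Only 6 members were above it in gh09, 2 in gh15 and 2 in gh12. Over all tested genes the shares above their own mean lay between 48.3% and 54.8% in the same libraries. The 2 highest of the 5 libraries were gh03 and gh06 in 77 of the 81 members (95.1%) and in 1712 of the 13692 tested genes (12.5%). The 4 exceptions were Rplp0, Rps2, Rpl7l1 and Rps27l, of which the last 2 are paralogs. Since gh03 is Robo1+/+ and gh06 Robo1-/-, this shared movement did not follow the genotype.

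**Figure D4:**
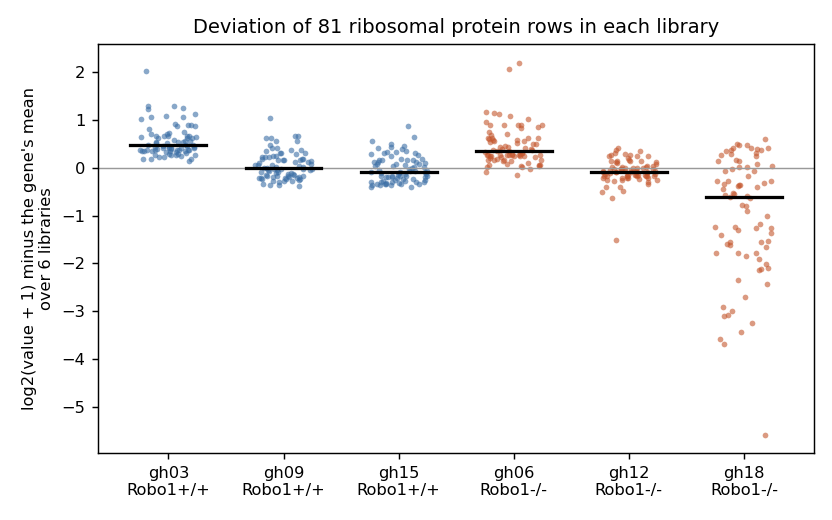
Deviation of each of the 81 tested rows from its own mean over the 6 libraries, in log2(value + 1) units, by library, with blue points for Robo1+/+, orange points for Robo1-/- and a black bar at the median. The medians are 0.47 in gh03 and 0.34 in gh06, close to 0 in gh09, gh15 and gh12, and -0.61 in gh18, where the points reach down to -5.58.

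The excess in gh03 and gh06 was larger for shorter members. Across the 77 members with an annotated coding sequence, the Spearman correlation of the deviation in gh03 with coding length was -0.71 and that in gh06 -0.44, both as descriptions of single libraries; over 12450 tested genes they were -0.11 and 0.08. In gh03 the 26 shortest members (156 to 399 bases) had a median deviation of 0.43, or 1.35-fold, and the 26 longest (585 to 1260 bases) 0.30, or 1.23-fold. In gh06 the medians were 0.27 and 0.19. Coding length and coding GC were nearly unrelated among the members, with a Spearman correlation of 0.09.

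**Figure D5:**
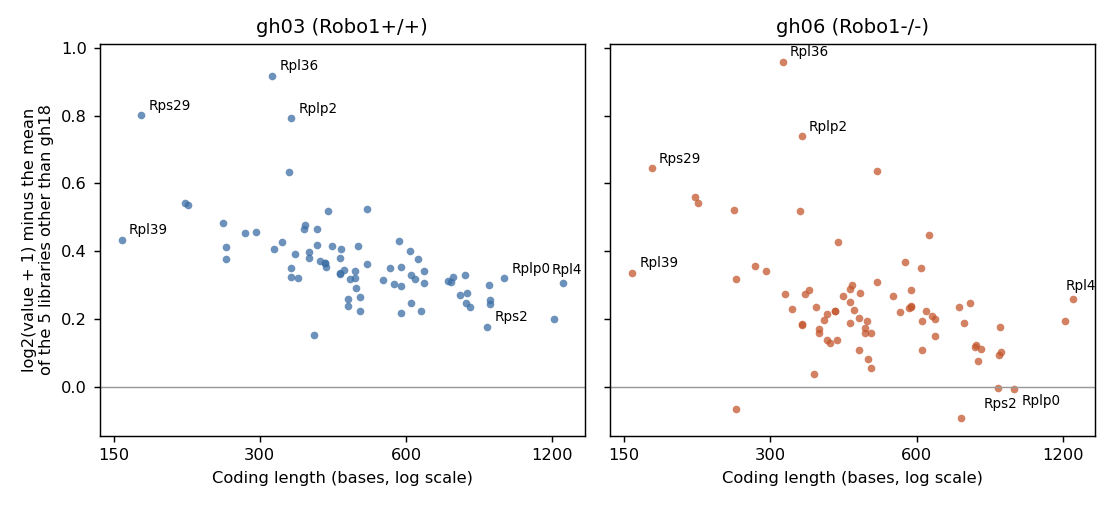
Deviation of gh03 (left, Robo1+/+) and gh06 (right, Robo1-/-) from each member's mean over the 5 libraries other than gh18, in log2(value + 1) units, against coding length in bases on a log axis, with a point for each of 77 members. In gh03 every point is above 0, and Rpl36, Rps29 and Rplp2 lie highest in both libraries.

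Rps29, a small zinc-binding protein of the small subunit with a coding length of 171 bases, had 2604, 1189 and 1346 in Robo1+/+ and 2335, 764 and 196 in Robo1-/-. Its gh03 and gh06 values were well above the other 4. Rps2, with 882 coding bases, had 14321, 11876 and 11842 in Robo1+/+ and 12629, 12805 and 4480 in Robo1-/-. Here gh06 lay just below gh12, which was the reverse of the order in most members.

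Of the marker lists, the basal one had the same 2 highest libraries. The summed value of 10 basal cell markers was highest in gh03 (2548) and next in gh06 (1864), with 907 in gh09, 1564 in gh15, 1080 in gh12 and 1198 in gh18, and 9 of the 10 were above their own 5-library mean in each of gh03 and gh06. The summed value of the 3 erythroid markers in the table was 261, 255 and 58.2 in Robo1+/+ and 251, 60.5 and 101 in Robo1-/-, with Hbb-b1 at 0 in some library. The 6 leukocyte markers in the table summed to 96.3 to 161 in any library, with Ptprc and Cd79a at 0 in some. The 10 fibroblast markers summed to 597 to 1609 and the 7 endothelial markers to 210 in gh18 and 1387 to 2482 elsewhere. The 10 mature luminal markers summed to 47292 in gh03, the lowest, and to 50737 to 74207 in the others. The part of these genes in the ribosomal protein values was not tested.

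The paralogs differed from the genes they copy in level and in how they varied. Rpl22l1, which can take the place of Rpl22 in the large subunit, had 2625, 1602 and 1648 in Robo1+/+ and 1948, 1828 and 3155 in Robo1-/-. Per kilobase of coding sequence it stood at 31.2% ± 5.85 of Rpl22 in Robo1+/+ and 42.3% ± 23.4 in Robo1-/- (SD, n = 3 each), where gh06 gave 26.8%, gh12 30.8% and gh18 69.2%. The high Robo1-/- mean thus came from gh18, and the 2 genes differ in coding GC, 39.6% against 48.3%. Rpl7l1, a nucleolar relative of Rpl7, stood at 9.31% ± 0.226 of Rpl7 in Robo1+/+ and at 7.69%, 8.80% and 4.56% in gh06, gh12 and gh18. Rps27l stood at 22.2% ± 1.94 of Rps27 in Robo1+/+ and 20.7% ± 4.05 in Robo1-/-. None of the 3 tested paralogs passed the test between the genotypes (limma adjusted p at least 0.858).

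Rps27l is the paralog whose coding sequence can be set base by base against its relative, since both are 255 bases long. They share 194 bases and differ at 61 (76.1% identity), and Rps27 is the richer in GC (50.6% against 45.5%). The differing bases are in capitals, to show how closely spaced they are for reads of 75 bases. Rps27 lies at chr3:90016593-90017573 (-) and Rps27l at chr9:66793893-66797323 (+) on NCBI build 37.
Rps27: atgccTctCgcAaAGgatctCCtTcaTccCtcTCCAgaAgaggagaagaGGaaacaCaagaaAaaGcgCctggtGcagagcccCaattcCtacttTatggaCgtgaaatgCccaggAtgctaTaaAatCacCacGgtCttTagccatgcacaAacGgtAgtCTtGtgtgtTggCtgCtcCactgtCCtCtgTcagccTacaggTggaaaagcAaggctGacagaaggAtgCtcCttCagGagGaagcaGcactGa
Rps27l: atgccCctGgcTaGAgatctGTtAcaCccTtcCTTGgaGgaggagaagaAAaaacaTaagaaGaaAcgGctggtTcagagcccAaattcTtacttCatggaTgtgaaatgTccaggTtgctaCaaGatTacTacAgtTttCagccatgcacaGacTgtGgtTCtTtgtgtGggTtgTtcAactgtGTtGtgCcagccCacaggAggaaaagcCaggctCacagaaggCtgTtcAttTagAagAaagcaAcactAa
Rps27 had 5959, 3598 and 3644 in Robo1+/+ and 5584, 4125 and 5683 in Robo1-/-, and Rps27l had 1223, 781 and 886 and then 899, 968 and 1288. Leaving gh18 aside, gh03 and gh06 were the 2 highest libraries for Rps27, as in most members, but not for Rps27l.

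Rpl3l, the muscle form of Rpl3, was the only member that failed the filter on low reads and was not tested. It was listed at 1.27, 1.57 and 1.88 in the Robo1+/+ libraries and at 2.30, 0.92 and 0 in the Robo1-/- libraries, under 3 reads in every library. In gh18, 3 reads would be a value of 4.38.

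Many members cannot be separated from their copies by 75 bases. Of the 78 symbols with an annotated coding sequence, 75 had at least 1 other place in the genome that held some of their 75-base sequences exactly, with a median of 5 places and up to 64 for Rpl7a. The median member had 81.7% of its 75-base coding sequences elsewhere, 24 had all of them elsewhere, and 6 had under 10%, among them Rpl7l1, Rpl8 and Rps3. These were counted in the genome sequence itself and carry no statement on whether the other places are transcribed. Over the 5 of these that were tested the median log2 fold change was -0.31, and their share of reads was 0.303% in Robo1+/+ and 0.232% in Robo1-/-. The share of sequence found elsewhere had a Spearman correlation of 0.17 with the deviation in gh18 and 0.05 with that in gh03, over 77 members.

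Rpl29, a large-subunit protein, shows the difficulty. Its 3 rows had values of 1728, 1491 and 1362 in Robo1+/+ for the row at its own locus (kgCluster27093, chr9:106331785-106333899), 2449, 2021 and 1963 for kgCluster226, and 2648, 2151 and 2021 for kgCluster19606. In Robo1-/- they had 1540, 1318 and 409, then 2273, 1507 and 436, then 2569, 1491 and 483. The rows that are not at the gene's locus were thus the higher ones. By their numbers, which follow the genome, kgCluster226 falls between Fhl2 and Nck2 on chromosome 1 and kgCluster19606 between Ccdc64 and Cit on chromosome 5. Exact copies of 49.1% of the 75-base coding sequences of Rpl29 lie there, at chr1:43246073-43246422 and chr5:116251747-116252096. The levels of the 3 rows are therefore uncertain, and none of them passed the test between the genotypes (limma adjusted p = 0.858 for each).

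The second Rps4x row (kgCluster21809) had 25.5, 14.9 and 18.8 in Robo1+/+ and 48.3, 2.75 and 0 in Robo1-/-, which is 0.0895% to 0.244% of the main row in 4 libraries and 0.0162% in gh12. Its number falls between Tmtc1 and Ipo8 on chromosome 6, where GENCODE M1 has the gene Rps4y2 at chr6:148303178-148304120 (+), a symbol that the table does not use. It was the member with the lowest fold change without gh18 (-0.57). With a mean of 18.4 it was also the lowest tested.

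Some ribosomal proteins fall outside the name rule. Gnb2l1, the small-subunit scaffold protein also called RACK1, had 19326, 16760 and 14483 in Robo1+/+ and 18151, 14182 and 7459 in Robo1-/-. Fau, which is made as a fusion of a ubiquitin-like protein with a small-subunit protein, had 4294, 3408 and 2862 in Robo1+/+ and 4835, 2209 and 626 in Robo1-/-. Rpl36al, a large-subunit protein, had 3210, 2385 and 2264 in Robo1+/+ and 2936, 2583 and 1609 in Robo1-/-. In each of these the 2 highest libraries other than gh18 were gh03 and gh06, as in most members. Their log2 fold changes were -0.43, -0.88 and -0.17 with 6 libraries and -0.06, -0.09 and 0.09 without gh18, and none passed the test (limma adjusted p at least 0.858).

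None of the lists of related genes held a gene with an adjusted p under 0.05. The 17 listed genes with TOP mRNAs were translation factors such as Eef1a1 and Eef2, and others such as Npm1, Nap1l1, Tpt1 and Hnrnpa1. They were tested in 19 rows, with 0 under an unadjusted p of 0.05. Their median log2 fold change was 0.13, and 0.06 without gh18. In gh03 17 of the 19 were above their 5-library mean, and in gh06 16 were. Eef1a1, which brings aminoacyl-tRNA to the ribosome, had 102810, 69332 and 65639 in Robo1+/+ and 95444, 82256 and 88934 in Robo1-/-. Eef2, the translocation factor, had 45170, 43533 and 36759 in Robo1+/+ and 51321, 33384 and 6331 in Robo1-/-, and so was lowest in gh18 by a wide margin.

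The 59 tested ribosome biogenesis factors had a median log2 fold change of -0.12, and of -0.27 without gh18, with 34 negative. Of these 55 were above their 5-library mean in gh03 but only 34 in gh06. Noc4l, a factor of small-subunit assembly, was the single one under an unadjusted p of 0.05, with 958, 698 and 750 in Robo1+/+ and 646, 493 and 366 in Robo1-/- (log2 fold change -0.70, standard error 0.28; limma adjusted p = 0.858). The 77 rows of mitochondrial ribosomal proteins had a median of -0.10, and of -0.03 without gh18, with 0 under an unadjusted p of 0.05. They took 0.168% to 0.224% of reads, and 73 of the 77 were above their 5-library mean in gh03 but 36 in gh06, so that gh03 was high in these rows also and gh06 was not.

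The other lists also had 0 genes under an unadjusted p of 0.05. The median log2 fold change was 0.07 for the 7 chaperones dedicated to ribosomal proteins and 0.14 for the 7 snoRNA host genes tested. It was -0.24 for 17 genes of mTOR and Myc control of translation and 0.07 for 10 genes of the ribosomal stress response. Without gh18 these medians were -0.03, -0.01, -0.05 and 0.02, in the same order. In gh03, 6 of the 7 chaperones and 6 of the 7 host genes were above their 5-library mean, against 9 of the 17 mTOR and Myc genes and 3 of the 10 stress genes. Among the marker lists, Csn3, a milk casein, was higher in Robo1-/- at an unadjusted p of 0.012 (adjusted p = 0.858), with 7755, 8119 and 9771 in Robo1+/+ and 11376, 19142 and 16669 in Robo1-/-. Pgr, the progesterone receptor of mature luminal cells, was higher at an unadjusted p of 0.044, with 1721, 3003 and 3394 in Robo1+/+ and 5481, 4124 and 3752 in Robo1-/-. Neither passed the adjusted threshold, and no gene of the basal, leukocyte, endothelial, fibroblast or erythroid lists reached an unadjusted p under 0.05.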

How the data were processed

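The authors deposited 1 table of normalized signal values per known-gene cluster: read counts divided by 1 size factor per library. Per the paper, reads were trimmed to 75 bases, cleared of repeat elements, mapped by TopHat to mm9 and scaled by DESeq2. The counting tool, its use of strand and its treatment of reads with several matches are not given in the sources used here. Whole reads were recovered from the value of 1 read per library; 6 values were not whole within rounding. A value of 0 means that no read was counted, since 1 read gives a value between 0.78 (gh09) and 1.46 (gh18).

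limma 3.58.1 (trend, Benjamini-Hochberg) was fitted to log2(value + 1) over the 13692 genes kept by filterByExpr of edgeR 4.0.16 on recovered reads, in place of the count test foreseen for raw counts. edgeR's quasi-likelihood test and DESeq2 1.42.0 were run on recovered reads. The limma fit was tested on simulated counts. Exact permutation tests were two-sided. GC correction subtracted a lowess curve per library over transcript GC. Coordinates, coding lengths and coding GC are from GENCODE M1 (NCBI build 37), which lacks Rpl41; 77 tested members had them. Shared sequence was counted as exact 75-base matches of the coding sequence.

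Members and gene lists were chosen with earlier results of these data known. Named members were the 10 highest per coding kilobase (coding length replaced the planned transcript length, which the annotation overextends for some members), the 5 smallest p-values in each direction, paralogs with their parent gene, the stalk genes and Rpsa, members failing the filter, the 5 largest and smallest SD, and list genes with p under 0.05. Others, such as Rpl4, Rpl3, Rps29 and Rps2, were chosen after their values were seen.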

Additional observations from a re-analysis of the deposited data

How the results depend on the processing

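No member passed an adjusted p of 0.05 under any of the 16 alternatives (pseudocounts of 0.5 and 5, all genes with at least 1 read, a mean value of at least 10, TMM and upper-quartile scaling, GC correction, edgeR, DESeq2, each library left out, and GC correction without gh18, the last chosen after seeing the data). The number with an unadjusted p under 0.05 was 0 in 15 of them and 14 without gh06, a range of 0 to 14 with 1 library left out; the cause was not tested. The median member log2 fold change was -0.25 and ran from -0.50 without gh06 to 0.02 without gh18; it was -0.08 without gh03, 0.01 with GC correction and without gh18, and between -0.31 and -0.14 under the other alternatives that keep all libraries. With 1 library left out, the mean share of reads lay between 4.08% and 5.03% in Robo1+/+ and between 3.55% and 4.57% in Robo1-/-. Over the 5 tested members with under 10% of their 75-base sequences elsewhere the shares were 0.303% and 0.232%, lower because fewer genes were summed. With GC correction the median deviation of gh18 was -0.42 in place of -0.61, and those of the other libraries moved by less than 0.1. The 5 members with the smallest p in each direction kept the sign of their fold change under all 16, and the 5 lower ones were closer to 0 without gh18. No paired analysis was run because the labels give the genotypes no shared replicate numbers. The library numbers alternate between the genotypes. Whether libraries with neighboring numbers, such as gh03 and gh06, were prepared together is not given, so a pairing or a batch cannot be told apart here. Groups of 3 libraries cannot give an exact permutation p under 0.1, and in gh18 Rpl36, the most GC-rich member, rests on 5 reads.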
